A study of Homo sapiens with 9 samples.

Results

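The genes described here act in DNA repair and in the checkpoints that halt a cell with damaged or unreplicated DNA. They were taken from a list of 33 symbols, as every probe set on the array whose annotation named only that symbol. This gave 59 probe sets for 29 genes, out of 54675 probe sets and 19775 genes in all. BRCA2, FANCA, FANCD2 and PMS2 were not analysed here. For PMS2, 2 probe sets named several genes, and none is attributed to it. RNA came from P493-6, a human B-cell line kept in culture that expresses Myc ectopically, and was measured on 9 single-colour arrays. By their labels 4 arrays are of high Myc cells, 3 of low Myc cells and 2 of cells with no Myc. The labels number the replicates and name no treatment, time or separate culture. The p-values therefore speak of array-to-array spread alone, possibly technical, and every array comes from this 1 line.

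As background, homologous recombination copies an intact sister DNA to mend a break. BRCA1 with BARD1, and then PALB2 with BRCA2, prepare the broken end for strand exchange, and RAD54L and RAD54B help the invading strand to find its partner. The Fanconi anemia proteins form a core complex that tags FANCI and FANCD2 with ubiquitin at crosslinked DNA. ATM responds to breaks and acts through CHEK2, and ATR responds to exposed single strands at stalled replication forks and acts through CHEK1. Many of these genes are known to be expressed mainly in cells that replicate their DNA. In B cells, UNG and MSH6 also act on the uracil that is placed in antibody genes during class switching and hypermutation.

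The deposited intensities had array medians of 75.3 to 80.3, and all values below are log2 intensities. Across genes, arrays of the same group correlated at 0.976 to 0.992 and arrays of different groups at 0.917 to 0.982. MYC itself had linear intensities of 11326 to 15404 in high Myc, 1443 to 2526 in low Myc, and 2803 and 416 in no Myc. The value of 2803 is that of the library labelled no Myc replicate 1 and exceeds all 3 low Myc values. Its MYC level went against its label, and each comparison with no Myc below is also given with it left out. The 7 measured B-cell markers, such as MS4A1 and CD79A, averaged over 8 in each group, and their linear intensities summed to 27388 to 33915 in high Myc, 32369 to 35663 in low Myc and 51964 to 61454 in no Myc. The 8 myeloid markers summed to 431 to 501, 396 to 462 and 1700 to 2567. Of these, LYZ averaged 5.14, 4.54 and 8.99 and ITGAM 7.25, 6.90 and 10.30 in high, low and no Myc, while CD14 averaged 5.30, 5.40 and 5.21. For GAPDH, the log2 gap between the 3' and the 5' control probe sets, a sign of RNA quality, was 0.03 to 0.24 in high Myc, 0.01 to 0.15 in low Myc, and 0.25 and 0.42 in no Myc. The same gap for ACTB was -0.05 to 0.19 in high Myc, -0.07 to 0.02 in low Myc, and 0.00 and -0.01 in no Myc. The part of these differences in the results below was not tested.

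In high Myc cells most of the repair and checkpoint genes exceeded their no Myc level, and ATM was lower. By limma, at an adjusted p under 0.05 over all 19775 genes, 21 of the 29 genes rose and 1 fell. Over all genes 14.2% rose and 9.0% fell in this comparison. All genes include weakly expressed ones, and 17241 of the 19775 reached a mean log2 of 5. The median of the 29 genes was 7.97 to 9.05 over the arrays, above the upper quartile of each array (7.55 to 7.71). Shares among genes of like level were not counted, here or in the comparisons below. The median log2 difference was 0.81 for the 29 genes and -0.01 for all genes. In 23 of the 29 every high Myc array was above both no Myc arrays, and in 2 every high Myc array was below them, against 20.6% and 17.8% of all genes. In bulk RNA, fewer cells that express a gene and less RNA of it per cell cannot be told apart.

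Low Myc cells were set against the same no Myc arrays, so both comparisons share them. Of the 29 genes 19 rose and 1, again ATM, fell, where 11.3% of all genes rose and 8.55% fell. The median log2 difference was 0.71, and -0.00 for all genes. Every low Myc array was above both no Myc arrays for 22 of the 29 genes and below them for 1, against 20.0% and 17.6% of all genes.

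Once the library labelled no Myc replicate 1 is left out, the no Myc group rests on 1 array, which is assumed to vary like the others. The risers were then 11 in high Myc and 10 in low Myc, while 9.11% and 5.16% of all genes rose. The fallers were 0 in high Myc and 1, ATM, in low Myc (4.61% and 4.22% of all genes). All 22 and 20 called differences kept their sign. This had to be so, because the group values of each called member do not overlap. With no Myc replicate 2 left out instead, 19 and 12 rose (10.2% and 7.08% of all genes) and 1 and 1 fell (6.61% and 6.4%).

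**Figure D1:**
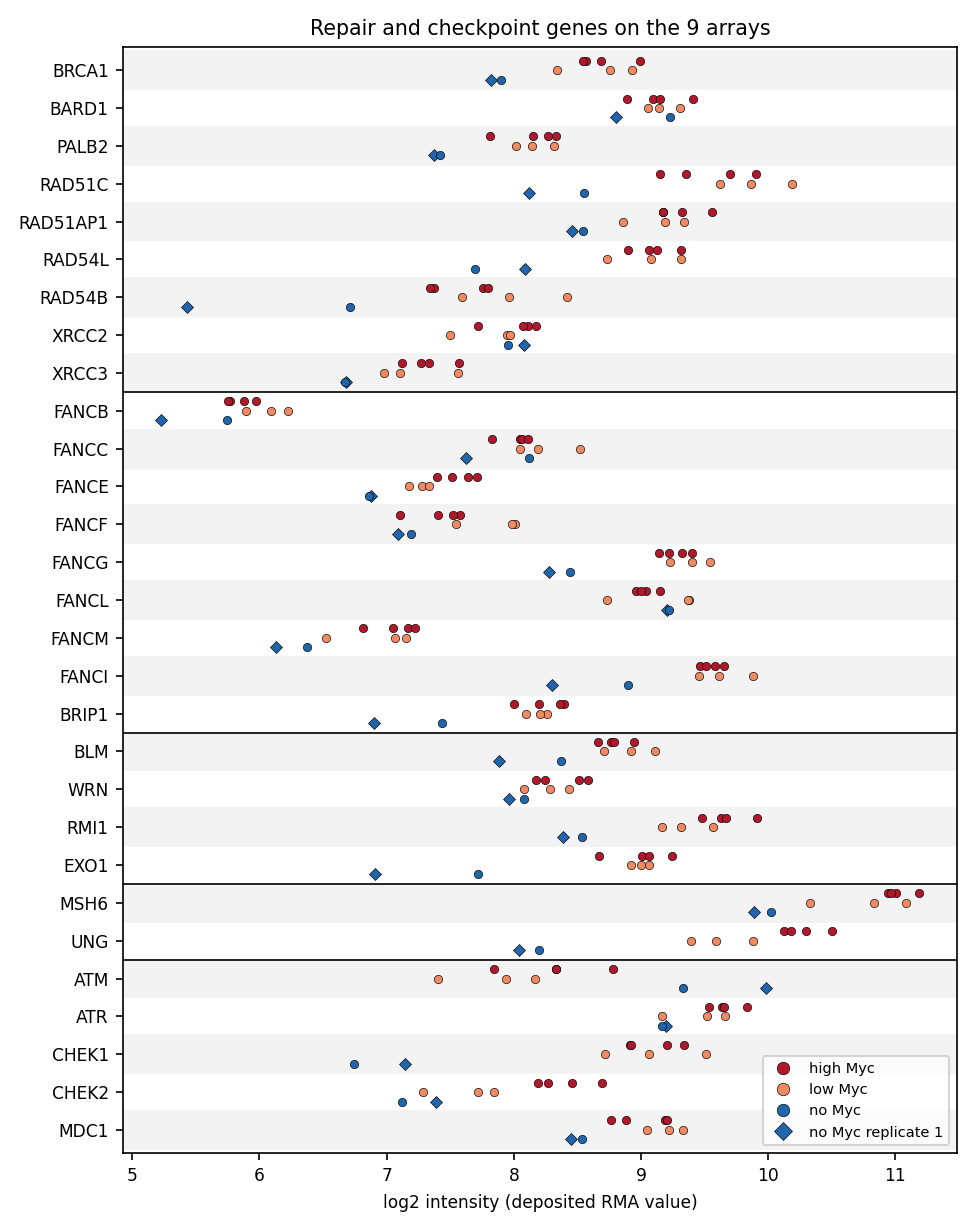
Log2 intensity (horizontal axis) of the probe set that represents each of the 29 genes, with 1 point per array. Rows run by role from homologous recombination at the top to checkpoint genes at the bottom, colours mark the 3 groups, and diamonds mark the library labelled no Myc replicate 1. The blue no Myc points lie left of the others for most genes, and right of them for ATM.

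UNG, CHEK1 and CHEK2, which rose, and ATM, which fell, are the members described most closely below, and the 250 bases before a start of each are shown, as given by RefSeq for GRCh38.p14. Capitals mark the words searched on both strands, which were CACGTG (the E-box that MYC with MAX is known to bind), TTTCCCGC, TTTCGCGC, TTTGCCGC and TTTGGCGC (E2F-like), CCAAT (the NF-Y box, ATTGG on the other strand) and TTTGAA (the cell cycle homology region, TTCAAA on the other strand).
UNG, second start (chr12:109097922-109098171, plus strand): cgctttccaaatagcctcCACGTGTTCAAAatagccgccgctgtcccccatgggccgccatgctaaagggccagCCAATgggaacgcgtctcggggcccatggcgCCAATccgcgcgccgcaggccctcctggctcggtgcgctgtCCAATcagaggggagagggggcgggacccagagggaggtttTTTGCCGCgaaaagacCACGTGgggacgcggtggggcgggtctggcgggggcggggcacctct
UNG, first start (chr12:109097347-109097596, plus strand): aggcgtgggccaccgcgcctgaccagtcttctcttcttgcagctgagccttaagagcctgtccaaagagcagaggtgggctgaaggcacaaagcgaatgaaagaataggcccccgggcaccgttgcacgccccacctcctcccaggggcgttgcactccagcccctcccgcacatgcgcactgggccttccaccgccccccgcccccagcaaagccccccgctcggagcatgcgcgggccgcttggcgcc
CHEK2 (chr22:28741821-28742070, minus strand): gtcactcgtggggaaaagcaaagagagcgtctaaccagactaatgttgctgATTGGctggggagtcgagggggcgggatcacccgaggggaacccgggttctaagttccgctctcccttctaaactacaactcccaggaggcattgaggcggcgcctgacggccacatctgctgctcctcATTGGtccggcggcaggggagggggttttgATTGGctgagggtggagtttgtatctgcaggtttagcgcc
CHEK1 (chr11:125625979-125626228, plus strand): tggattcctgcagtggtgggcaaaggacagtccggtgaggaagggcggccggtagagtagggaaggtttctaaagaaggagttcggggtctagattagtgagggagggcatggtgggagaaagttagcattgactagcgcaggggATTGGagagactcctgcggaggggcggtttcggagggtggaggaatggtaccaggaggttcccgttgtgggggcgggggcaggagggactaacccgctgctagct
ATM (chr11:108222817-108223066, plus strand): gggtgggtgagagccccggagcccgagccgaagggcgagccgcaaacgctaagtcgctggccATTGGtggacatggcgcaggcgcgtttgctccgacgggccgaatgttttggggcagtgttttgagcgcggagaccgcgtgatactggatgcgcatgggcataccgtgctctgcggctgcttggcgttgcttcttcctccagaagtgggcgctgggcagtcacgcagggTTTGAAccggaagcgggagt

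The window before the second UNG start held 7 of these words. An E-box began 232 bases before the start, followed directly by TTCAAA, so that their capitals run on. CCAAT began 176, 145 and 104 bases, TTTGCCGC 63 bases and another E-box 47 bases before it. The window before the first UNG start held none. The CHEK2 window had ATTGG at 199, 70 and 40 bases, the CHEK1 window shown had it at 105 bases, and the ATM window shown had it at 188 bases and TTTGAA at 20 bases before the start. These are 1 of 3 CHEK1 windows and 1 of 2 ATM windows. Of those not shown, 1 CHEK1 window had ATTGG at 100 bases and 1 at 232, 26 and 12 bases, and the ATM window had CCAAT at 56 bases before its start.

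Windows were found for 26 of the 29 genes, 39 in all. UNG was the only 1 of the 26 with an E-box, where 7.73% of all genes with a window had one. E2F-like words were in 3 of the 26 (FANCC, RMI1 and UNG, and 3.40% of all genes), the NF-Y box in 16 (37.0% of all genes) and the cell cycle homology region in 5 (16.1% of all genes). A word in a window is a description of these letters and no measure of binding.

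Among the genes of homologous recombination, 7 of the 9 measured rose in high Myc and 6 in low Myc, with median differences of 0.81 and 0.76. The largest difference was that of RAD54B, a motor protein of strand exchange. RAD54B read 7.38, 7.76, 7.80 and 7.34 in high Myc, 7.96, 8.41 and 7.59 in low Myc, and 5.43 and 6.71 in no Myc. The no Myc arrays thus differed by 1.28 from each other, and both lay below all 7 others. Their linear intensities were 43.2 and 104.9, the first below the array medians of 75.3 to 80.3. RAD54B had 1 probe set of its own, and 2 that named several genes were not used. RAD54B rose by 1.50 ± 0.34 (log2 ± SE) in high Myc (adjusted p = 0.012) and by 1.92 ± 0.36 in low Myc (adjusted p = 0.00607). Leaving out the library labelled no Myc replicate 1, these differences were 0.85 (adjusted p = 0.123, not called) and 1.28 (adjusted p = 0.0464).

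RAD54L, the close relative of RAD54B, gave steadier values. It read 8.90, 9.31, 9.13 and 9.06 in high Myc, 9.08, 9.32 and 8.73 in low Myc, and 8.09 and 7.69 in no Myc. It rose 2.32-fold in high Myc (1.21 ± 0.19, adjusted p = 0.00157) and 2.22-fold in low Myc (1.15 ± 0.20, adjusted p = 0.00371), and both calls held whichever array was left out. RAD51C, which acts in strand exchange, read 9.15 to 9.91 in high Myc, 9.62 to 10.19 in low Myc, and 8.12 and 8.55 in no Myc. Its differences were 1.19 ± 0.24 in high Myc (adjusted p = 0.00586) and 1.56 ± 0.25 in low Myc (adjusted p = 0.00288). The first was not called with the library labelled no Myc replicate 1 left out (0.98, adjusted p = 0.0792). The other RAD51C probe set rose in both comparisons as well.

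BRCA1, PALB2 and RAD51AP1 rose by less than 2-fold. BRCA1 read 8.57, 8.68, 8.99 and 8.54 in high Myc, 8.93, 8.76 and 8.34 in low Myc, and 7.82 and 7.90 in no Myc. Both no Myc arrays lay below all others. The BRCA1 difference was 0.84 ± 0.18 in high Myc (adjusted p = 0.00862) and 0.81 ± 0.19 in low Myc (adjusted p = 0.0158). A second BRCA1 probe set differed by 0.36 ± 0.11 and 0.40 ± 0.11 in the table of all probe sets and was not called (adjusted p = 0.0546 and 0.0528). PALB2, which joins BRCA1 to BRCA2, rose by 0.75 ± 0.15 and 0.76 ± 0.16 (adjusted p = 0.0068 and 0.0101). RAD51AP1, which stimulates strand pairing, rose by 0.81 ± 0.16 and 0.63 ± 0.17 (adjusted p = 0.00528 and 0.0271). None of these 6 calls held with the library labelled no Myc replicate 1 left out, with differences of 0.59 to 0.80 and adjusted p of 0.0557 to 0.166. In low Myc all 3 were lost without no Myc replicate 2 as well (adjusted p = 0.0676, 0.0518 and 0.0957), and RAD51AP1 also without low Myc replicate 1 or 2.

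The remaining genes of recombination gave smaller differences or none that passed the test. XRCC3, which forms a complex with RAD51C, rose by 0.65 ± 0.18 in high Myc (adjusted p = 0.026) and differed by 0.54 ± 0.19 in low Myc (adjusted p = 0.0781). XRCC3 was no longer called in high Myc on dropping replicate 2, 3 or 4 of high Myc or 1 of the no Myc arrays (0.57 to 0.67, adjusted p up to 0.133), and without low Myc replicate 3 it was called in low Myc (0.66, adjusted p = 0.0385). XRCC2, which also acts in recombination, differed by 0.00 in high Myc, with a 95% interval of -0.38 to 0.39, and by -0.21 in low Myc, with an interval of -0.62 to 0.19. BARD1, the partner of BRCA1, differed by 0.12 ± 0.17 and 0.15 ± 0.18 on the probe set that represents it. Its probe sets gave different answers. Another BARD1 probe set differed by 0.47 ± 0.14 (adjusted p = 0.0565) and by 0.61 ± 0.15 (adjusted p = 0.027) in the table of all probe sets.

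**Figure D2:**
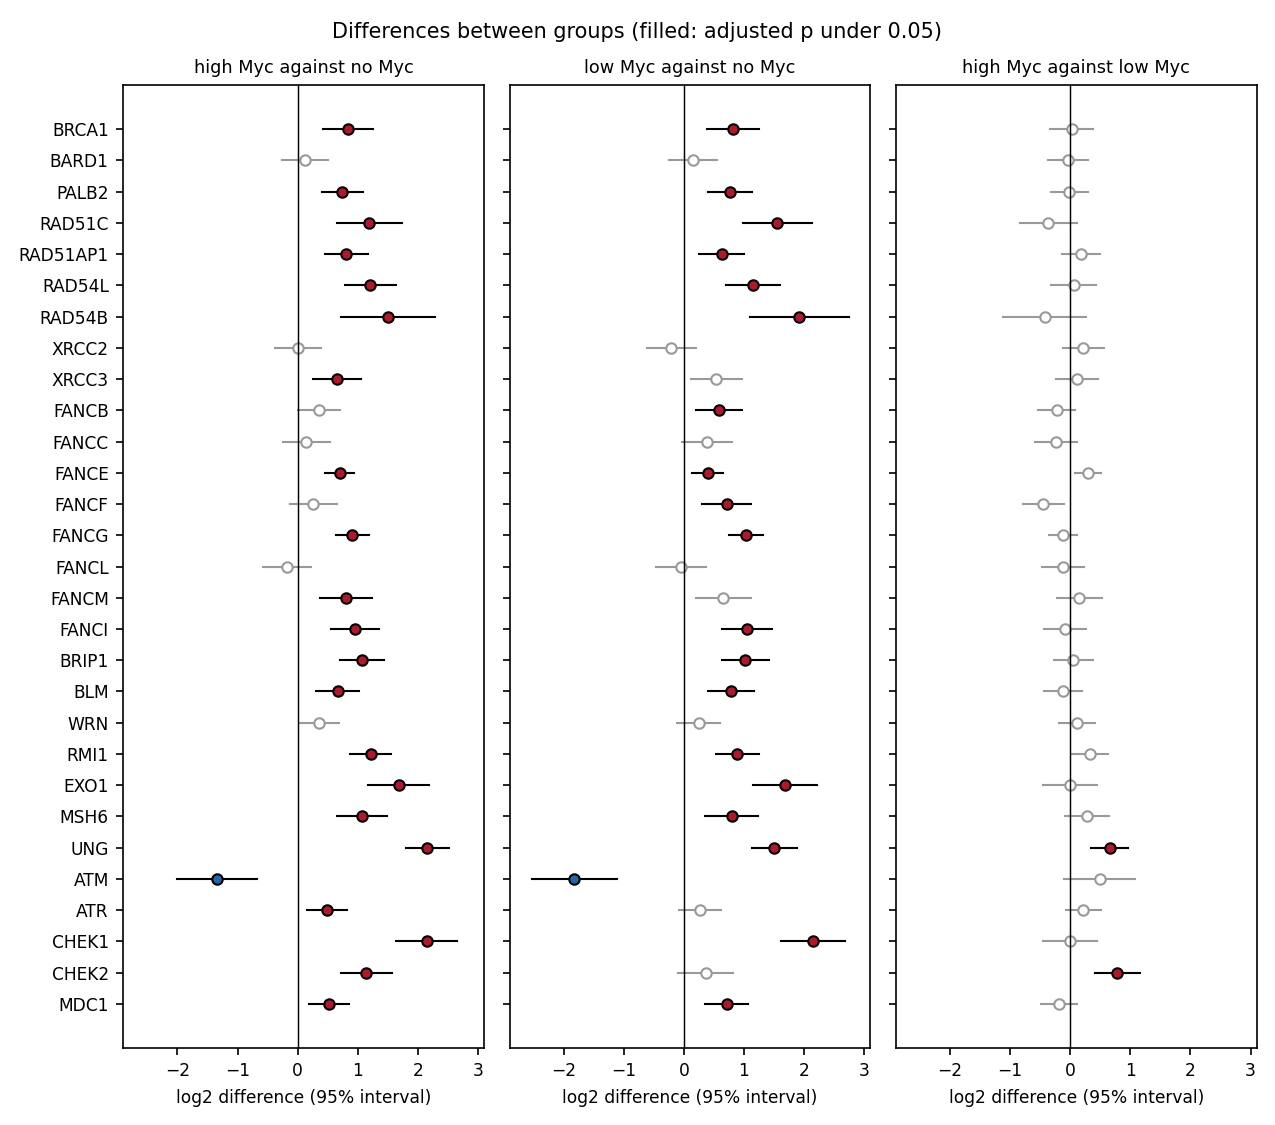
Log2 differences of the 29 genes with 95% intervals from limma, for high Myc against no Myc, low Myc against no Myc and high Myc against low Myc. Filled points passed an adjusted p of 0.05. In the first 2 panels most points are filled and right of 0, and in the third panel only UNG and CHEK2 are filled.

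In the Fanconi anemia pathway, 5 of 9 measured genes rose in high Myc and 6 in low Myc. FANCG, a scaffold of the core complex, read 9.14, 9.22, 9.33 and 9.40 in high Myc, 9.54, 9.40 and 9.23 in low Myc, and 8.28 and 8.44 in no Myc. It rose by 0.91 ± 0.12 in high Myc (adjusted p = 0.000752) and 1.03 ± 0.13 in low Myc (adjusted p = 0.000986). FANCI, a target of the core complex, read 9.46 to 9.65, 9.45 to 9.88, and 8.30 and 8.90 in high, low and no Myc, and rose by 0.95 ± 0.17 and 1.05 ± 0.18 (adjusted p = 0.00377 and 0.00418). BRIP1, a helicase that binds BRCA1, averaged 8.24 ± 0.18 (SD, n = 4) in high Myc and 8.19 ± 0.08 (SD, n = 3) in low Myc, and read 6.90 and 7.43 in no Myc. Its high and low Myc values overlapped. BRIP1 rose by 1.07 ± 0.16 and 1.02 ± 0.17 (adjusted p = 0.00157 and 0.00366). The calls of FANCG, FANCI and BRIP1 in both comparisons held whichever array was left out. All 3 FANCI probe sets and both BRIP1 probe sets rose in both comparisons.

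Other core complex genes had smaller differences. FANCE, which contacts FANCD2, rose by 0.70 ± 0.11 in high Myc (adjusted p = 0.00168) and by 0.40 ± 0.11 in low Myc (adjusted p = 0.0394). The low Myc call of FANCE did not survive the loss of replicate 2 or 3 of high Myc, of replicate 1 or 2 of low Myc, or of any no Myc array (0.36 to 0.41, adjusted p up to 0.162). FANCM, the motor protein that brings the complex to DNA, rose by 0.81 ± 0.19 in high Myc (adjusted p = 0.0134), but not with the library labelled no Myc replicate 1 left out (0.69, adjusted p = 0.132). In low Myc FANCM differed by 0.66 ± 0.20, just outside the threshold (adjusted p = 0.0501), and it was called without low Myc replicate 3 (0.85, adjusted p = 0.00578). With the median of its probe sets, FANCM differed by 0.34 in high Myc (adjusted p = 0.0751), and none of its other 3 probe sets was called in either comparison with no Myc (0.08 to 0.24 in high Myc and 0.19 to 0.34 in low Myc). FANCB and FANCF, both core subunits, rose in low Myc by 0.58 ± 0.17 and 0.71 ± 0.18 (adjusted p = 0.0365 and 0.0218). FANCB had low signal, with linear intensities of 37.5 to 74.7 over all arrays, below the array medians of 75.3 to 80.3. In high Myc they differed from no Myc by 0.36 ± 0.16 and 0.26 ± 0.17 (adjusted p = 0.165 and 0.384).

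The low Myc call of FANCB was lost on dropping replicate 1, 3 or 4 of high Myc, replicate 1 or 2 of low Myc, or the no Myc array whose MYC went against its label (0.32 to 0.58, adjusted p up to 0.317), and with the median of its probe sets (0.47, adjusted p = 0.165). Without no Myc replicate 2, FANCB was called in high Myc too (0.61, adjusted p = 0.0329). FANCF lost its low Myc call on dropping replicate 1 or 2 of that group or any no Myc array (adjusted p up to 0.147). FANCL, the ubiquitin ligase of the complex, did not pass in either comparison. It read 8.96 to 9.15 in high Myc, 9.38, 9.37 and 8.74 in low Myc, and 9.20 and 9.22 in no Myc. The FANCL intervals were -0.57 to 0.22 for high Myc and -0.47 to 0.37 for low Myc. FANCC, a core subunit next to FANCE, differed by 0.14 ± 0.17 and 0.38 ± 0.18 (adjusted p = 0.701 and 0.219).

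Of the helicases and their partners, EXO1, the exonuclease that resects DNA ends, differed most. EXO1 read 8.67, 9.01, 9.25 and 9.06 in high Myc, 8.92 to 9.07 in low Myc, and 6.91 and 7.72 in no Myc. The no Myc arrays lay far below the rest and 0.82 apart. EXO1 rose 3.21-fold in both high Myc (1.68 ± 0.22, adjusted p = 0.00078) and low Myc (1.68 ± 0.24, adjusted p = 0.00157), and by 1.27 in both with the library labelled no Myc replicate 1 left out. RMI1, which binds the helicase BLM, rose by 1.21 ± 0.15 in high Myc and 0.89 ± 0.16 in low Myc (adjusted p = 0.000527 and 0.0042). BLM, which unwinds recombination intermediates, rose by 0.66 ± 0.16 and 0.78 ± 0.17 (adjusted p = 0.0155 and 0.0113), but not with the library labelled no Myc replicate 1 left out (0.42 and 0.54, adjusted p = 0.181 and 0.114), nor in high Myc with quantile normalization repeated (0.58, adjusted p = 0.0562). WRN, the helicase lacking in Werner syndrome, read 8.18 to 8.58, 8.08 to 8.43, and 7.97 and 8.08 in high, low and no Myc. Its differences of 0.36 ± 0.15 and 0.24 ± 0.16 were not called (adjusted p = 0.138 and 0.403).

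UNG, the glycosylase that removes uracil from DNA, had no overlap between any of its groups. It read 10.30, 10.12, 10.50 and 10.18 in high Myc, 9.59, 9.88 and 9.39 in low Myc, and 8.04 and 8.20 in no Myc. Its level stepped down over the groups labelled high, low and no Myc. The library labelled no Myc replicate 1 had a MYC intensity of 2803, above every low Myc array, and the lowest UNG value, 8.04. Whether the E-boxes have a part in the UNG level was not tested. UNG rose 4.46-fold in high Myc against no Myc (2.16 ± 0.16, adjusted p = 9.52e-05) and 2.83-fold in low Myc against no Myc (1.50 ± 0.16, adjusted p = 0.00069). Both calls held whichever array was left out. MSH6, which recognises mismatched bases, read 10.94 to 11.18 in high Myc, 10.33 to 11.08 in low Myc, and 9.89 and 10.02 in no Myc. It rose by 1.07 ± 0.19 and 0.79 ± 0.20 (adjusted p = 0.00287 and 0.0198). The low Myc call was lost on dropping replicate 1 of that group or any no Myc array (0.73 to 0.86, adjusted p up to 0.14). Of the 4 MSH6 probe sets 2 rose in both comparisons, and the others did not pass, the lowest at -0.01 ± 0.31 and -0.81 ± 0.32. With the median of the 4, MSH6 differed by 0.66 in high Myc (adjusted p = 0.0281) and 0.08 in low Myc (adjusted p = 0.9).

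Among the 5 checkpoint genes 4 rose and 1 fell in high Myc, and 2 rose and 1 fell in low Myc. CHEK1, the kinase that ATR activates, read 8.92, 9.20, 9.34 and 8.92 in high Myc, 9.06, 9.51 and 8.72 in low Myc, and 7.14 and 6.75 in no Myc. High and low Myc overlapped, and both no Myc arrays lay far below them. Against no Myc, CHEK1 rose 4.43-fold in high Myc (2.15 ± 0.22, adjusted p = 0.000295) and 4.44-fold in low Myc (2.15 ± 0.24, adjusted p = 0.000706). Leaving out the library labelled no Myc replicate 1 gave 2.35 in both, and the calls held whichever array was left out. Of the 4 CHEK1 probe sets 3 rose in both comparisons. The fourth had a mean of 5.55 over all arrays and differed by -0.29 ± 0.25 and -0.13 ± 0.27 without a call.

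CHEK2, the kinase that ATM activates, stood apart in high Myc. It read 8.69, 8.19, 8.27 and 8.46 in high Myc, 7.72, 7.84 and 7.29 in low Myc, and 7.39 and 7.12 in no Myc. Low and no Myc overlapped, and all high Myc arrays lay above both. CHEK2 rose 2.21-fold against no Myc (1.14 ± 0.19, adjusted p = 0.00232), a call that held whichever array was left out. Low Myc differed from no Myc by 0.36 ± 0.20 (adjusted p = 0.31), with an interval of -0.09 to 0.81.

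ATM, the kinase at the head of the response to breaks, was the only member that fell. It read 8.78, 7.85, 8.33 and 8.33 in high Myc, 8.17, 7.94 and 7.40 in low Myc, and 9.98 and 9.33 in no Myc. Both no Myc arrays lay above all others, the library labelled no Myc replicate 1 most. ATM fell by 1.34 on the log2 scale in high Myc (SE 0.29, adjusted p = 0.00957) and by 1.82 in low Myc (SE 0.31, adjusted p = 0.00363). Leaving out the library labelled no Myc replicate 1, the differences were -1.01 (adjusted p = 0.121, not called) and -1.50 (adjusted p = 0.0469). All 6 ATM probe sets were lower in both comparisons and 3 were called. Among the 3, the other 2 probe sets had their higher no Myc value in replicate 2, at 8.62 and 10.18, against 8.05 and 9.13 in replicate 1. With the median of all 6, ATM in low Myc differed by -1.16 (adjusted p = 0.00105).

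ATR and MDC1, a scaffold that gathers repair factors at breaks, rose by less. ATR read 9.54 to 9.83 in high Myc, 9.17 to 9.66 in low Myc, and 9.20 and 9.16 in no Myc. It rose by 0.49 ± 0.14 in high Myc (adjusted p = 0.0387) and differed by 0.27 ± 0.15 in low Myc (adjusted p = 0.32). The ATR call was lost on dropping replicate 2, 3 or 4 of high Myc, replicate 1 of low Myc or any no Myc array (0.43 to 0.50, adjusted p up to 0.17), and ATR was called in low Myc without low Myc replicate 3 (0.41, adjusted p = 0.0469). With a trended prior ATR was not called either (adjusted p = 0.0583), and with quantile normalization repeated it differed by 0.32 (adjusted p = 0.035). A second ATR probe set rose by 0.83 ± 0.15 in high Myc (adjusted p = 0.0057), and the third differed by -0.32 ± 0.14 without a call. MDC1 rose by 0.52 ± 0.15 in high Myc and 0.71 ± 0.16 in low Myc (adjusted p = 0.0333 and 0.0122). Its other probe set differed by 0.33 ± 0.14 in high Myc without a call (adjusted p = 0.187) and rose by 0.56 ± 0.15 in low Myc (adjusted p = 0.0392). Neither MDC1 call held with 1 no Myc array left out, whichever it was (0.47 to 0.75, adjusted p = 0.0528 to 0.201), nor the high Myc call without high Myc replicate 2 or 3, or with quantile normalization repeated (0.40, adjusted p = 0.104). With the low Myc and no Myc arrays fitted alone, RAD51AP1, FANCB, FANCE, FANCF, BLM and MSH6 were not called in low Myc (adjusted p = 0.052 to 0.12).

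**Figure D3:**
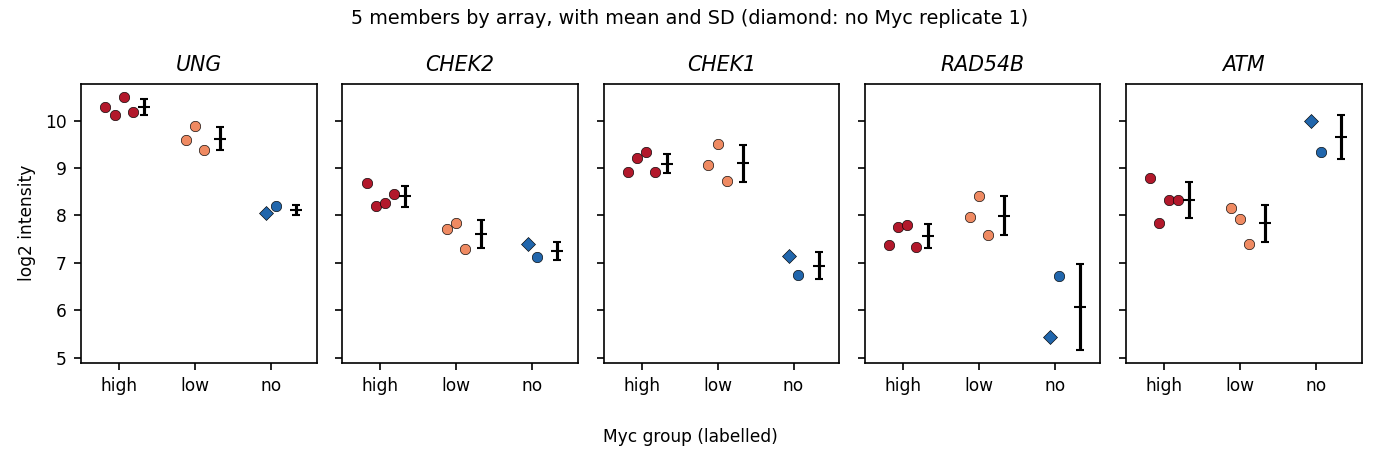
Log2 intensity of UNG, CHEK2, CHEK1, RAD54B and ATM by labelled group, with 1 point per array, the mean as a bar beside them and the SD as the error bar. UNG steps down over high, low and no Myc, CHEK2 is high only on the 4 high Myc arrays, CHEK1 and RAD54B are low on both no Myc arrays, and ATM is highest there.

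Between high Myc and low Myc few of these genes differed. By limma 2 of the 29, UNG and CHEK2, were higher in high Myc and 0 were lower, where 2.33% of all genes were higher and 1.27% lower. At an unadjusted p under 0.05 these counts were 4 and 1. The shares of all genes at that looser threshold were not counted, so these 2 counts are a description only. The median difference was 0.02 for the 29 genes and 0.00 for all genes. For 3 of the 29 genes every high Myc array was above every low Myc array and for 0 below, against 8.06% and 4.66% of all genes. With 1 no Myc array left out, whichever it was, 0 were called (1.44% and 0.612% of all genes). UNG was 1.58-fold higher (0.66 ± 0.14, adjusted p = 0.0383) and CHEK2 1.72-fold higher (0.78 ± 0.17, adjusted p = 0.0407).

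UNG and CHEK2 each had 1 probe set, and neither was called by limma in the table of all probe sets (adjusted p = 0.0574 and 0.0621). Both calls were close to the threshold. They were lost when replicate 1, 3 or 4 of high Myc, replicate 1 or 3 of low Myc or any no Myc array was left out, with UNG at 0.54 to 0.69 (adjusted p up to 0.126) and CHEK2 at 0.62 to 0.84 (adjusted p up to 0.113). In a fit without the no Myc arrays the differences were 0.66 and 0.78, each with an adjusted p of 0.0647. These differences cannot change, because the no Myc arrays enter this comparison only through the shared estimate of spread. Leaving out either no Myc array or both therefore gives the same fit here, and not separate checks. The third gene without overlap was FANCE, at 0.30 ± 0.10 (adjusted p = 0.136). For CHEK1 the interval of the difference was -0.45 to 0.45, for EXO1 -0.45 to 0.45 and for BRCA1 -0.34 to 0.38. FANCF was the member lowest in high relative to low Myc, at -0.45 ± 0.15 (adjusted p = 0.154).

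The arrays of a group did not weigh evenly in these genes. In the high Myc group, replicate 3 was highest for 17 of the 29 genes and lowest for 0, whereas it was highest for 17.80% of all genes. High Myc replicate 1 was lowest for 16 (28.84% of all genes). In the low Myc group, replicate 3 was lowest for 25 of the 29, against 38.37% of all genes. Low Myc replicate 2 was highest for 21 (32.87% of all genes). The upper quartile of log2 intensity was 7.55 on low Myc replicate 3 and 7.64 to 7.71 on the other arrays. Its part in these counts was not tested. Among the arrays labelled no Myc, replicate 1 was below replicate 2 for 21 of the 29 (48.3% of all genes), and the median difference over all 29, replicate 1 minus replicate 2, was -0.12. The largest gap was that of RAD54B, and ATM went the other way by 0.65. The range over the arrays of a group had a median of 0.41, 0.47 and 0.17 in high, low and no Myc for the 29 genes, and 0.33, 0.35 and 0.17 for all genes.

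**Figure D4:**
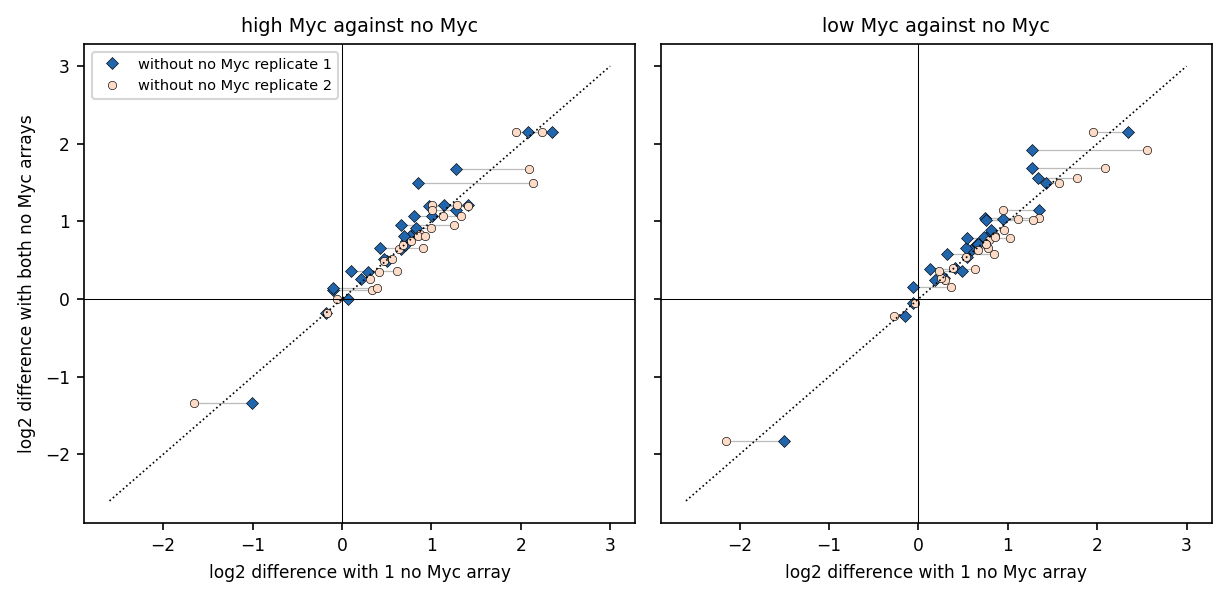
Log2 differences of the 29 genes with both no Myc arrays (vertical axis) against those with 1 no Myc array (horizontal axis), for high Myc and low Myc against no Myc. Diamonds leave out the library labelled no Myc replicate 1 and circles leave out replicate 2, lines join the 2 values of a gene, and the dotted line marks equal values. RAD54B, EXO1 and ATM have the longest lines.

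All 59 probe sets were tested in the table of 54675 probe sets, where 29 rose and 3 fell in high Myc against no Myc. In low Myc against no Myc 29 rose and 3 fell as well. In high Myc against low Myc 0 of the 59 were called, and 1.04% and 0.525% of all probe sets. Over all probe sets 9.24% rose and 7.79% fell in the first comparison, and 6.73% and 7.66% in the second. Of the 14 genes with over 1 probe set, 9 had all of them on 1 side of 0 in each comparison with no Myc and 6 in high Myc against low Myc. No gene had probe sets called in both directions.

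Genes of the same pathways outside this list are given by counts, read against the same 14.2% and 9.0% of all genes. The members and these lists were chosen with earlier results of these data known, so a contrast between them is a description only. In high Myc against no Myc, 5 of 18 other homologous recombination genes rose and 3 fell (median 0.24), with RAD51B, which forms a complex with RAD51C, at -1.35 ± 0.18 and RPA3, a subunit of the protein that coats single strands, at 0.86 ± 0.15. Of 8 other Fanconi anemia genes 3 rose (median 0.16), including UBE2T, which supplies ubiquitin to FANCL, at 2.10 ± 0.19 and USP1, which removes it again, at 1.25 ± 0.16. In base excision repair 8 of 17 rose and 3 fell (median 0.49), with the glycosylases NTHL1 at 2.04 ± 0.24 and NEIL3 at 1.48 ± 0.19. Of 3 other mismatch repair genes 1 rose, PMS1 at 1.03 ± 0.16. For nucleotide excision repair 5 of 18 rose and 1 fell (median 0.17), with DDB1, a damage-binding subunit, at 0.91 ± 0.14.

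In end joining 5 of 11 rose (median 0.23), among them PRKDC, the DNA-dependent protein kinase, at 1.60 ± 0.24. For translesion synthesis 7 of 12 rose and 1 fell (median 0.57), with POLQ, a polymerase of end joining and bypass, at 1.13 ± 0.20. Of 18 other checkpoint genes 9 rose (median 0.42), with TIPIN, a replication fork protein, at 2.37 ± 0.30 and RAD1 of the checkpoint clamp at 1.19 ± 0.13. Among 15 genes of p53 and its targets, 2 rose and 2 fell (median 0.13), with CCNG1 at 1.29 ± 0.21 and TP53INP1 at -2.12 ± 0.42. Of the genes that the naming rule takes from these lists in high Myc, MRE11, TDG, GTF2H4, HLTF, H2AX and TP53INP1 lost their calls with the library labelled no Myc replicate 1 left out (adjusted p = 0.0636 to 0.230). Without that library, where 9.11% of all genes rose, the risers were 2 in homologous recombination, 3 in the Fanconi anemia pathway, 6 in base excision, 1 in mismatch and 1 in nucleotide excision repair, 4 in end joining, 5 in translesion synthesis, 2 in the checkpoint list and 2 among the p53 targets.

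In low Myc against no Myc, where 11.3% of all genes rose and 8.55% fell, 7 of the 18 other homologous recombination genes rose and 2 fell. Of the 8 other Fanconi anemia genes 3 rose, of the 17 in base excision 7 rose and 2 fell, of the 3 in mismatch repair 1 rose, and of the 18 in nucleotide excision repair 3 rose. In end joining 4 of 11 rose and 1 fell, in translesion synthesis 4 of 12 rose, in the checkpoint list 7 of 18 rose, and among the 15 genes of p53 and its targets 3 rose and 2 fell. Leaving out the library labelled no Myc replicate 1, where 5.16% of all genes rose, the risers of these lists, in that order, were 2, 3, 5, 1, 0, 1, 2, 3 and 2. UBE2T (2.34 ± 0.20), NEIL3 (1.73 ± 0.20) and TIPIN (2.24 ± 0.32) were among the risers, and TP53INP1 (-2.78 ± 0.45) and RAD51B (-1.04 ± 0.19) were among the fallers. These 5 kept their calls without that library. GEN1, NTHL1, DDB1, CETN2, ERCC8, PRKDC, RIF1, POLQ, HLTF, H2AX and SESN1, which the naming rule also takes in low Myc, did not (adjusted p = 0.0529 to 0.310). Genes of DNA replication and mitosis moved with them. In high Myc against no Myc 28 of 31 replication genes (median 1.37) and 23 of 23 mitosis genes (median 1.49) rose, and in low Myc against no Myc the same counts rose (medians 1.42 and 1.51). Leaving out the library labelled no Myc replicate 1, the counts were 22 and 21 in high Myc and 23 and 20 in low Myc. The part of replicating cells in the differences of the repair genes was not tested.

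**Figure D5:**
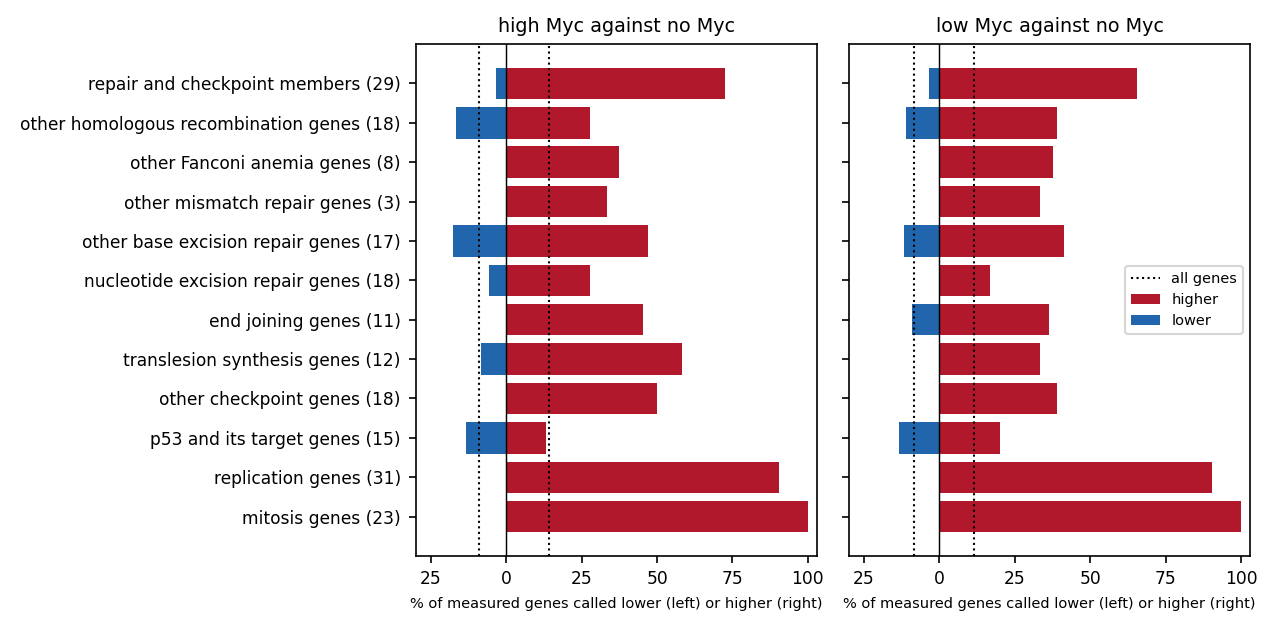
Share of the measured genes of each list (number in brackets) that were called higher (right of 0) or lower (left of 0) in high Myc and in low Myc than in no Myc. Dotted lines give the shares over all genes, 14.2% and 9.0% in high Myc and 11.3% and 8.55% in low Myc. The repair and checkpoint members lie below the replication and mitosis genes and above the other repair lists. Members and lists were chosen with earlier results of these data known, so this order is a description only.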

How the data were processed

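RNA of 9 arrays was analysed from 1 table. The authors deposited intensity values on a linear scale. Per the submitters' processing notes they come from RMA, a method that by its general definition corrects background, normalizes quantiles and summarises probes, and its version is not given in the sources used here. It is meant to make array distributions alike, so a change in total RNA per cell cannot be seen. The deposited distributions were not identical, with array medians of 75.3 to 80.3. Repeating quantile normalization changed some differences, such as those of ATR, BLM and MDC1. No detection calls were used, and the number of arrays limits the precision.

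Of 54675 probe sets, 41097 had 1 symbol in the platform annotation, 1801 several and 11777 none. Each of 19775 genes was represented by its probe set with the highest mean log2 value. Group means of log2 intensity were fitted to all 9 arrays with limma 3.58.1 in R 4.3.3 (eBayes without trend, 6 residual degrees of freedom, two-sided), with Benjamini-Hochberg adjustment over all genes of a comparison and calls at an adjusted p under 0.05. The procedure was run on simulated data with independent values and genes shifted in the high Myc group alone. That setting has no array whose MYC level goes against its label, so it says nothing about such an array.

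The members and all lists were chosen with earlier results of these data known. All members were named, and from each other list at most 3 called genes a comparison with the largest difference and no overlap. Replicate numbers are shared between groups, but nothing in the labels ties them: deviations from the group means of same-numbered high and low Myc arrays correlated at 0.25, 0.03 and -0.31 across genes, those of high and no Myc arrays at 0.45 and 0.07, and those of low and no Myc arrays at 0.47 and 0.10. Not every pair was over 0.1, so they were not used as pairs. The values of 0.25, 0.45 and 0.47 are those of the replicate 1 arrays, no Myc replicate 1 among them. Differently numbered arrays also reached 0.44 (high Myc replicate 3 with low Myc replicate 2). Whether the replicate 1 arrays were handled together is not given by the labels and was not tested. No genome build is named for the arrays, and sequences are from RefSeq. Alternatives were other normalizations, a filter on low values, other uses of probe sets, other priors, weights, samples and thresholds, the replicate number as a block, and each array left out.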

Additional observations from a re-analysis of the deposited data

Results flagged for a closer look

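Among the 73 genes that the naming rule gives, an array of the 4-array high Myc group stood apart from its fellows for 2, by a gap to the nearest array that exceeded Dixon's 95% critical value as a share of the group's range. Chance gives about 1 in 20 such groups. POLQ read 9.50 on high Myc replicate 3 and 9.27 to 9.30 on the other high Myc arrays. RPA3 read 10.79 on high Myc replicate 4 and 10.50 to 10.53 on the others. None of the 29 repair and checkpoint members was among them.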

How the results depend on the processing

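No call of a member reversed under any alternative run. Against no Myc, the 21 higher members in high Myc became 10 at a minimum of 2-fold and 11 to 21 with 1 array left out, and the 1 lower member 0 to 1. The 19 higher members in low Myc became 10 at an adjusted p under 0.01, 9 at a minimum of 2-fold and 10 to 22 with 1 array left out, and the lower member stayed 1. The 2 members higher in high Myc than in low Myc became 1 with arrays centred on their median and 0 with every probe set tested, only the 2 groups fitted, an adjusted p under 0.01 or a minimum of 2-fold, and 0 to 2 with 1 array left out. The 0 lower members became 1, FANCF, with array weights and stayed 0 with 1 array left out. With the replicate number as a block, which left 3 residual degrees of freedom, the higher members were 18, 13 and 0 in the 3 comparisons. Among these alternatives, shares of all genes were counted only for every probe set and for each no Myc array left out. The other counts describe the members alone. BARD1 was called in high and low Myc against no Myc with the median of its probe sets (0.47 and 0.61, adjusted p = 0.0452 and 0.0217). FANCM was called in low Myc with quantile normalization repeated, the filter, the trended prior or array weights. Of 783 member results with 1 array left out, 67 lost a call and 4 gained one. The 783 include the results that had no call to lose. The causes were not tested. With 2 no Myc arrays, 1 of which has a MYC level against its label, small differences from no Myc could not be resolved. Without that library the median difference of the 29 genes was 0.71 in high Myc and 0.66 in low Myc. Without no Myc replicate 2 it was 0.88 and 0.79. Whether the label is right was not tested.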

Other observations

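Among the repair lists outside the members, 3 genes differed between high Myc and low Myc by limma, 1 of 18 in nucleotide excision repair that was higher and 2 of 18 in homologous recombination that were lower. Over all genes 2.33% were higher and 1.27% lower, and counts this small are given as a description only. XPA, which checks damage in nucleotide excision repair, was 0.60 ± 0.08 (log2 ± SE) higher in high Myc (8.49) than in low Myc (7.90), with adjusted p = 0.00557, and was called whichever array was left out. RMI2, a partner of RMI1 and BLM, was lower by -0.67 ± 0.12 (adjusted p = 0.0221), and MUS81, a nuclease that cuts branched DNA, by -0.53 ± 0.09 (adjusted p = 0.0193). RMI2 and MUS81 lost their calls on dropping high Myc replicate 1, 3 or 4, and likewise on dropping low Myc replicate 1.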
